A study of Homo sapiens with 12 samples.

Results

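The miR-99/100 and miR-125 families were examined in the human osteosarcoma cell line Saos-2 and in Sa/CD99, its stable transfectants with the membrane protein CD99. The members were chosen by name, as the array's mature miRs of the 2 families: hsa-miR-99a, hsa-miR-99b, hsa-miR-100, hsa-miR-125a-5p and hsa-miR-125b, 5 of 851 miRs. All 5 passed the filter (detected in both columns of at least 1 group), which left 219 miRs in the tests. hsa-miR-99a passed only through the day 14 groups and was detected in 8 of 12 columns, the other 4 members in 12 of 12.

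Each of the 6 groups had 2 arrays: Sa/CD99 at days 0, 7 and 14 (clones Sa/CD99wt22 and Sa/CD99wt36) and Saos-2 at days 0, 7 and 14 (replicates 1 and 2). Day 0 is the basal state, and days 7 and 14 were spent in medium for osteoblast differentiation. By the Methods that medium held less serum than the routine medium, with β-glycerophosphate and ascorbic acid added. No arrays came from cells kept in routine medium up to day 7 or 14. Differentiation, serum and time in culture therefore cannot be told apart. The CD99 plasmid was introduced by calcium phosphate with neomycin resistance selection, and each Sa/CD99 clone is 1 line grown from such a selection. No empty-vector line was among the arrays analysed here, so CD99 and the selection of clones cannot be told apart. The identity of the cells could be checked only through miRs. From a list for mesenchymal cells 9 of 10 were detected in all 12 columns: hsa-miR-21, hsa-miR-22, hsa-miR-24, hsa-miR-27a, hsa-miR-29a, hsa-miR-145, hsa-miR-199a-3p, hsa-miR-199a-5p and hsa-miR-214. This list was not limited to miRs particular to such cells, so it is a weak check. hsa-miR-143 was detected in none, and 0 of 4 blood, 0 of 7 epithelial and 0 of 1 liver miRs were detected.

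The deposited log2 table and the scanner files carry conflicting sample labels. Every table column shared its pattern of detected and undetected miRs with a single scanner array (847 of 847 names), and in 12 of 12 cases that array had been filed as a different sample. Taken in the order of the sample list, the arrays as filed run by slide and then by position on it, 12 of 12. Which record is right cannot be settled from these files. The values below follow the table's own column labels unless they are said to be from the arrays as filed, and the arrays named "matched" are the scanner arrays under the labels of the table. In the matched arrays the total gene signal, summed over all human miRs of the array, was 8594 to 11371 at day 0, 25232 to 56553 at day 7 and 39910 to 62236 at day 14. The number of detected miRs was 133 to 158, 158 to 229 and 195 to 214 on the same days. All day 0 arrays and the day 7 Saos-2 arrays lay on slide 1, and all day 14 arrays and the day 7 Sa/CD99 arrays on slide 2. The change from day 0 to day 14 and the slide therefore cannot be told apart by these labels, nor can cell type and slide at day 7. By the labels of the scanner files, slide 1 held Sa/CD99 alone and slide 2 Saos-2 alone.

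A miR acts as the guide of an Argonaute complex, which binds mRNAs mainly through pairing with the seed, the bases near the 5′ end, and lowers their translation and stability. miRs of one seed form a family and can share targets. The miR-99/100 family belongs with miR-10 to an ancient group, and the miR-125 family is the vertebrate counterpart of worm lin-4, a regulator of developmental timing. In vertebrates a miR-99/100 gene, a let-7 gene and a miR-125 gene lie together in clusters, and let-7, another regulator of developmental timing, is known for rising as cells differentiate.

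The mature sequences are shown because the members differ by so few bases that they define both families and bear on what an array probe can separate. They were taken from RefSeq (GRCh38.p14), 5′ to 3′, with the seed (bases 2 to 8) in capitals. The members of the miR-99/100 family share the seed ACCCGUA, which 3 of 2370 mature names in the table held.
hsa-miR-99a: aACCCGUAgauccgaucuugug
hsa-miR-100: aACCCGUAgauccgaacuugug
hsa-miR-99b: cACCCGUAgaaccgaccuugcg
The members of the miR-125 family share the seed CCCUGAG, which 3 of 2370 names held, the third being hsa-miR-4319.
hsa-miR-125a-5p: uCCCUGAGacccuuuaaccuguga
hsa-miR-125b: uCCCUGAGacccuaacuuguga
For comparison, hsa-miR-10a of the related miR-10 family carries another seed.
hsa-miR-10a: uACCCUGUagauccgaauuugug

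Counted from 1 at the 5′ end, hsa-miR-99a and hsa-miR-100 differed at 1 position (U16A, hsa-miR-99a first) and shared 21 of 22 bases. hsa-miR-99a and hsa-miR-99b differed at 4 positions (A1C, U11A, U16C and U21C). hsa-miR-125a-5p, of 24 bases, and hsa-miR-125b, of 22, shared their first 13 bases. Whether RNA of one member gave signal on the probes of another was not tested.

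The members come from 3 clusters, positions being those of the mature sequence on GRCh38.p14. On chromosome 21, hsa-miR-99a (chr21:16539101-16539122, plus strand) lies with let-7c and a copy of hsa-miR-125b (chr21:16590253-16590274, plus strand) within the long noncoding RNA gene MIR99AHG. On chromosome 11, hsa-miR-100 (chr11:122152275-122152296, minus strand) lies with let-7a-2 and the other copy of hsa-miR-125b (chr11:122099809-122099830, minus strand) within MIR100HG, also a long noncoding RNA gene. On chromosome 19, hsa-miR-99b (chr19:51692618-51692639, plus strand), let-7e and hsa-miR-125a-5p (chr19:51693268-51693291, plus strand) lie within 728 bases, inside the protein-coding gene SPACA6 and the long noncoding RNA gene SPACA6-AS1. The clusters of chromosomes 21 and 11 spanned 51237 and 52552 bases. The annotation used gave whole genes, so exon or intron is not stated. Both copies of hsa-miR-125b have the identical mature sequence, and the array cannot tell which cluster its signal came from.

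In the log2 table the levels of hsa-miR-99b, hsa-miR-100, hsa-miR-125a-5p and hsa-miR-125b were highest at day 0 and lowest at day 14 in both cell types, and those of Sa/CD99 and Saos-2 lay close together on each day. Levels are log2 values of the authors' normalized signal and are compared only within a miR, since probes differ in brightness.

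hsa-miR-125b, the member known for acting on apoptosis and differentiation genes, stood in Sa/CD99 clones 22 and 36 at 6.75 and 7.42 at day 0, at 5.37 and 5.86 at day 7 and at 3.65 and 4.63 at day 14. In Saos-2 replicates 1 and 2 it stood at 7.26 and 7.09 at day 0, at 6.00 and 4.97 at day 7 and at 4.89 and 4.15 at day 14. All 4 values of day 0 lay above all 4 of day 7, and these above all 4 of day 14, while the cell types overlapped on every day. The group means were 7.08 ± 0.47, 5.61 ± 0.35 and 4.14 ± 0.69 in Sa/CD99 (SD, n = 2) and 7.18 ± 0.12, 5.48 ± 0.73 and 4.52 ± 0.52 in Saos-2 (SD, n = 2).

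hsa-miR-125a-5p, which shares the seed of hsa-miR-125b, stood in Sa/CD99 clones 22 and 36 at 7.26 and 7.20 at day 0, at 5.70 and 5.93 at day 7 and at 4.77 and 5.21 at day 14. In Saos-2 replicates 1 and 2 it stood at 7.09 and 6.59, at 6.35 and 4.77 and at 5.12 and 4.77 on the same days. All day 0 values lay above all later ones, and days 7 and 14 overlapped through Saos-2 replicate 2 at day 7. That group had the widest spread of any member detected throughout (5.56 ± 1.11, SD, n = 2).

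hsa-miR-99b, the product of the same cluster as hsa-miR-125a-5p, stood in Sa/CD99 clones 22 and 36 at 5.70 and 5.75 at day 0, at 4.43 and 4.31 at day 7 and at 3.02 and 3.45 at day 14. In Saos-2 replicates 1 and 2 it stood at 5.49 and 5.64, at 4.35 and 4.04 and at 3.52 and 4.07. Its arrays of a group lay closest together at days 0 and 7, with SDs of 0.04 to 0.21, and both Saos-2 values of day 14 lay above both Sa/CD99 values.

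hsa-miR-100, whose family is known for lowering the growth kinase mTOR, stood in Sa/CD99 clones 22 and 36 at 5.34 and 6.05 at day 0, at 3.83 and 4.85 at day 7 and at 2.88 and 3.90 at day 14. In Saos-2 replicates 1 and 2 it stood at 5.75 and 5.66, at 4.75 and 4.43 and at 3.86 and 3.62. Clone 36 was above clone 22 on each day, and the Saos-2 values lay between the clones on each day.

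hsa-miR-99a was near the limit of detection. It was not detected in Sa/CD99 clone 22 at day 0 and clone 36 at day 7, nor in Saos-2 replicate 1 at days 0 and 7. Its other values were 2.91 at day 0, 0.81 at day 7 and −1.16 and −1.10 at day 14 in Sa/CD99, and 3.02 at day 0, −0.31 at day 7 and −1.06 and 0.99 at day 14 in Saos-2. It was thus detected in 2 of 4 columns at day 0, in 2 of 4 at day 7 and in 4 of 4 at day 14. Its detected values were highest at day 0 in the table, but its unscaled signal was 3.06 and 5.57 at day 0 and 2.46 to 10.1 at day 14, so no order of the days is read from it. An undetected miR stands at the column minimum, −3.32 to −3.0 over the 12 columns, so no fold change is given for it.

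**Figure D1:**
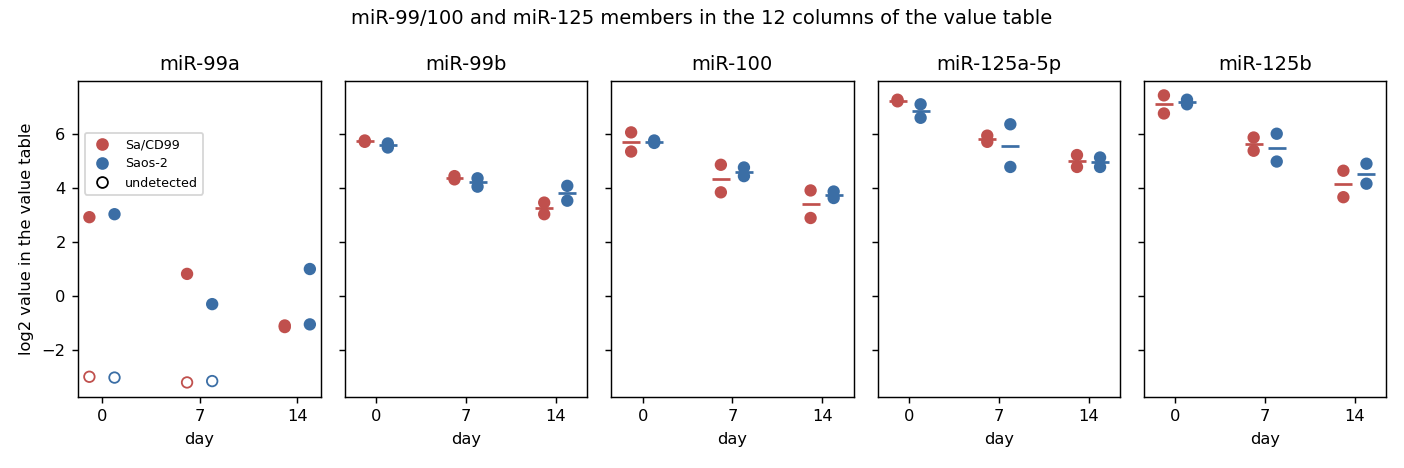
Log2 table value (vertical axis) of each member by day (horizontal axis) in every array, Sa/CD99 and Saos-2 in separate colours, filled points detected and open points undetected, bars the group means of 2 arrays. In 4 members every day 0 point lies above every day 14 point in both cell types, while hsa-miR-99a, drawn without means, has undetected points at days 0 and 7.

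The first question of the design was which miRs differ between Sa/CD99 and Saos-2 on each day. None of the 5 members was called on any day at the study's thresholds (p of at most 0.01 and a fold of at least 1.4, limma over 6 groups). Over all tested miRs 2.74% were called at day 0, 3.20% at day 7 and 9.13% at day 14. The differences of the 4 members detected in every column, Sa/CD99 minus Saos-2 on the log2 scale, ran from −0.09 to 0.39 at day 0, from −0.25 to 0.25 at day 7 and from −0.56 to 0.05 at day 14.

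Averaged over the 3 days the differences were small, but their intervals were wide. hsa-miR-99b differed by −0.08 (95% interval −0.52 to 0.37, adjusted p = 0.864). hsa-miR-100 differed by −0.20 (−0.86 to 0.46, adjusted p = 0.766), hsa-miR-125a-5p by 0.23 (−0.46 to 0.92, adjusted p = 0.74) and hsa-miR-125b by −0.12 (−0.82 to 0.59, adjusted p = 0.866). The intervals of these 4 members thus still held differences of up to 0.37 to 0.92 upward and −0.46 to −0.86 downward, and similar levels are not shown by these p-values. Over all tested miRs 2.74% passed an adjusted p of 0.05 (6 of 219, with 28 at an unadjusted p under 0.05), and of the members none did. The interaction of cell type and day was called in 1.83% of all miRs and in 0 of 5 members, whose adjusted p ran from 0.787 to 0.997 (lowest unadjusted p = 0.258).

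The arrays as filed gave another answer. With an rma background correction, quantile normalization and median polish, after the rma adaptation that the Methods name, 4 of 5 members were higher in Sa/CD99 over all days at an adjusted p of 0.05, beside 43.7% of all tested miRs called (93 of 213) and 18.3% called higher. hsa-miR-125b was higher by 2.07 on the log2 scale (95% interval 0.91 to 3.23, adjusted p = 0.0241) and hsa-miR-100 by 1.60 (0.84 to 2.35, adjusted p = 0.0241). hsa-miR-125a-5p was higher by 1.51 (0.42 to 2.61, adjusted p = 0.0346) and hsa-miR-99b by 1.37 (0.54 to 2.20, adjusted p = 0.0247). At day 14 only hsa-miR-100 was called among the members, at 1.96 on the log2 scale, with 7.04% of all miRs called.

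The unscaled total gene signal of hsa-miR-125b on the arrays as filed was 51.4 and 66.8 at day 0, 88.0 and 66.2 at day 7 and 94.3 and 119 at day 14 in Sa/CD99, against 19.6 and 33.0, 46.5 and 43.8, and 43.0 and 60.7 in Saos-2. On each day both Sa/CD99 arrays lay above both Saos-2 arrays, but the cell types overlapped over all days. By these labels each cell type lay on a slide of its own, so cell type and slide cannot be told apart. Scaled to the 75th percentile of the signal, hsa-miR-125b alone among the members was called (1.37 on the log2 scale, adjusted p = 0.041, with 27.7% of all miRs called and 4.69% called higher), with 0.86 for hsa-miR-100, 0.83 for hsa-miR-125a-5p and 0.71 for hsa-miR-99b. In the rma fit of the arrays as filed, leaving out 1 array gave 0 to 4 called members. None was called without clone 22 or clone 36 of Sa/CD99 at day 14, nor without Saos-2 day 0 replicate 1, day 7 replicate 2 or either day 14 replicate, and 2 were called without Sa/CD99 day 0 clone 36.

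**Figure D2:**
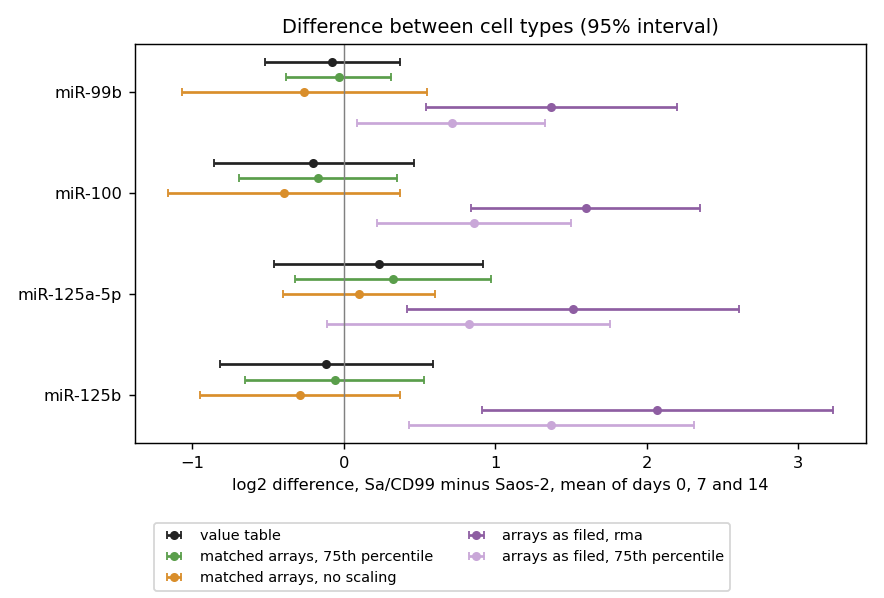
Difference between Sa/CD99 and Saos-2 averaged over the 3 days (horizontal axis, log2) for 4 members under 5 sets of values, with 95% intervals from the fit. The intervals of the log2 table and of the matched arrays include 0 for each member, and those of the arrays as filed after quantile normalization lie above 0.

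The other question was how miRs change in differentiation medium. From day 0 to day 14, 4 of 5 members fell in each cell type (adjusted p of 0.05 over 219 miRs). In Sa/CD99 74.4% of all miRs were called, 37.4% as lower and 37.0% as higher. In Saos-2 55.7% were called, 26.9% as lower and 28.8% as higher. The call rate in this contrast was thus high for miRs of any kind. The days also differed in serum, time in culture, slide and total signal as given above, whose part in the changes was not tested.

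hsa-miR-125b fell by 2.94 on the log2 scale in Sa/CD99 (95% interval −4.16 to −1.72, adjusted p = 0.00178), which is 7.68-fold. In Saos-2 it fell by 2.65 (−3.87 to −1.43, adjusted p = 0.00463), which is 6.28-fold. By clone and replicate number the change was −3.10 in clone 22, −2.78 in clone 36, −2.37 between the Saos-2 replicates numbered 1 and −2.94 between those numbered 2. hsa-miR-125b had the lowest change of the members in both cell types.

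hsa-miR-99b fell by 2.49 in Sa/CD99 (95% interval −3.26 to −1.72, adjusted p = 0.000387) and by 1.77 in Saos-2 (−2.54 to −1.0, adjusted p = 0.00334), folds of 5.62 and 3.41. hsa-miR-100 fell by 2.30 in Sa/CD99 (−3.45 to −1.16, adjusted p = 0.00451) and by 1.96 in Saos-2 (−3.11 to −0.82, adjusted p = 0.0135). hsa-miR-125a-5p fell by 2.24 in Sa/CD99 (−3.44 to −1.04, adjusted p = 0.00606) and by 1.89 in Saos-2 (−3.09 to −0.69, adjusted p = 0.0171). Both clones and both Saos-2 replicate numbers had lower values at day 14 in these 3 members, by −1.56 to −2.68 for hsa-miR-99b, −1.89 to −2.46 for hsa-miR-100 and −1.82 to −2.49 for hsa-miR-125a-5p. In Saos-2 the calls of hsa-miR-100 and hsa-miR-125a-5p were lost without day 0 replicate 1 (adjusted p = 0.0522 and 0.0815), and that of hsa-miR-125a-5p also without either day 14 replicate (0.0552 and 0.0588).

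Among the miRs detected in every column, much of the table moved down from day 0 to day 14. The median change of all 219 miRs was −0.64 in Sa/CD99 and −0.47 in Saos-2, and the median of the 4 members detected in every column −2.40 and −1.93. Over the 100 miRs detected in every column the medians were −1.57 and −1.15, with 68 and 45 called lower and 11 called higher in each cell type. Within these 100 miRs, 20 in Sa/CD99 and 12 in Saos-2 had a lower change than hsa-miR-125b. For hsa-miR-99b these numbers were 28 and 24, for hsa-miR-100 30 and 20 and for hsa-miR-125a-5p 31 and 22. This place depended on the values used: on the matched arrays 5 and 1 of 99 miRs had a lower change than hsa-miR-125b with the rma correction, and 6 and 3 of 99 after scaling to the 75th percentile. For the other 3 members these numbers were 9 to 19 and 10 to 14 with the rma correction.

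**Figure D3:**
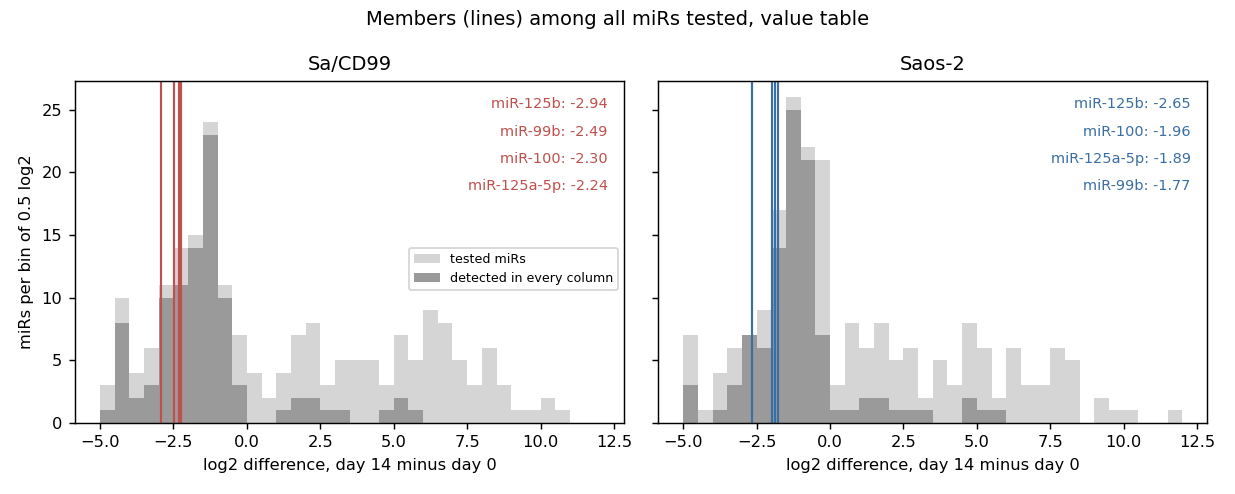
Number of miRs (vertical axis) by log2 change from day 0 to day 14 in the table (horizontal axis, bins of 0.5), for all 219 tested miRs and for the 100 detected in every column, in Sa/CD99 and in Saos-2, with lines at 4 members. The lines lie at −2.94 to −2.24 in Sa/CD99 and −2.65 to −1.77 in Saos-2, below the median of both sets and within their range.

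The size of the fall depended on the scaling between arrays, whereas its direction was the same in the table and the matched arrays under each scaling tried. Scaled to the 75th percentile of the total gene signal, the median change of all miRs was 0.35 in Sa/CD99 and 0.15 in Saos-2, and 52.1% and 41.1% of all miRs were called, 12.8% and 8.68% as lower. hsa-miR-125b fell by 2.08 in Sa/CD99 (adjusted p = 0.00585) and by 1.95 in Saos-2 (adjusted p = 0.01), and hsa-miR-99b by 1.10 (0.00891) and by 1.06 (0.0133). The change of hsa-miR-125a-5p was −1.53 (0.0287) and −1.15 (0.1), and that of hsa-miR-100 −0.95 (0.0754) and −1.24 (0.0364), so 3 members were called in each cell type. Relative to the median of all miRs, the 4 members changed by −2.30 to −1.60 in Sa/CD99 and −2.18 to −1.30 in Saos-2 in the table, and by −2.43 to −1.30 and −2.10 to −1.21 after this scaling.

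When the table columns were instead shifted to one median over the miRs detected in every column, hsa-miR-99b (−1.37 in Sa/CD99 and −1.04 in Saos-2) and hsa-miR-125b (−1.82 and −1.92) were called in each cell type, beside 53.9% of all miRs in Sa/CD99 and 44.3% in Saos-2, 14.6% and 12.8% as lower. hsa-miR-100 (−1.18 and −1.23, adjusted p = 0.0793 and 0.0825) and hsa-miR-125a-5p (−1.12 and −1.16, adjusted p = 0.0893 and 0.0964) no longer passed. With the normexp background correction, whose added offset draws log2 differences of dim miRs toward 0, the 4 members stood at −1.34 to −0.60 in Sa/CD99, all called, and at −0.92 to −0.61 in Saos-2, where hsa-miR-125b was not called (−0.87, adjusted p = 0.0705). Of all miRs 68.9% and 54.8% were called there, 32.4% and 26.0% as lower.

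With no scaling the total gene signal can be read as the scanner gave it. hsa-miR-125b gave 66.8 and 94.3 at day 0, 46.5 and 60.7 at day 7 and 19.6 and 43.8 at day 14 in Sa/CD99 clones 22 and 36, and 88.0 and 119, 51.4 and 66.2, and 33.0 and 43.0 in Saos-2 replicates 1 and 2. The ratios of day 14 to day 0 were 0.293 and 0.464 in the clones and 0.375 and 0.361 in the Saos-2 replicates. The 4 day 14 arrays lay below all earlier ones, although the summed signal of all miRs was higher on them than on the day 0 arrays.

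hsa-miR-125a-5p gave 93.4 and 87.5 at day 0 and 39.8 and 60.0 at day 14 in the clones, and 83.4 and 73.8 at day 0 and 43.4 and 58.4 at day 14 in Saos-2. hsa-miR-99b gave 25.6 and 26.5 against 15.6 and 23.1 in the clones, and 25.8 and 47.3 against 15.6 and 36.2 in Saos-2. hsa-miR-100 gave 21.5 and 29.9 against 14.8 and 28.6, and 30.1 and 47.9 against 19.3 and 27.1. The day 14 to day 0 ratio of these 3 members was below 1 in both clones and for both Saos-2 replicate numbers, from 0.427 to 0.955, but days 0 and 14 overlapped for hsa-miR-99b and hsa-miR-100. In the fit of the unscaled values only hsa-miR-125b in Sa/CD99 was called among the members (−1.44, adjusted p = 0.0445), beside 46.6% of all miRs in Sa/CD99 and 36.5% in Saos-2, 5.94% and 4.11% as lower. In Saos-2 its change was −1.44 too (adjusted p = 0.0548), and the other 3 members stood at −0.89 to −0.30 in Sa/CD99 and −0.73 to −0.56 in Saos-2, with medians of 0.15 and 0.14 over the 99 miRs that were detected in every column and shared with the arrays.

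On the arrays as filed no member was called from day 0 to day 14, and of all miRs 0% were called in either cell type (10 in Sa/CD99 and 5 in Saos-2 at an unadjusted p under 0.05, limma). The 4 members stood there at 0.11 to 1.03 in Sa/CD99 and 0.35 to 0.70 in Saos-2, opposite in sign to the table, and after scaling to the 75th percentile at −0.20 to 0.59 and −0.11 to 0.32.

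**Figure D4:**
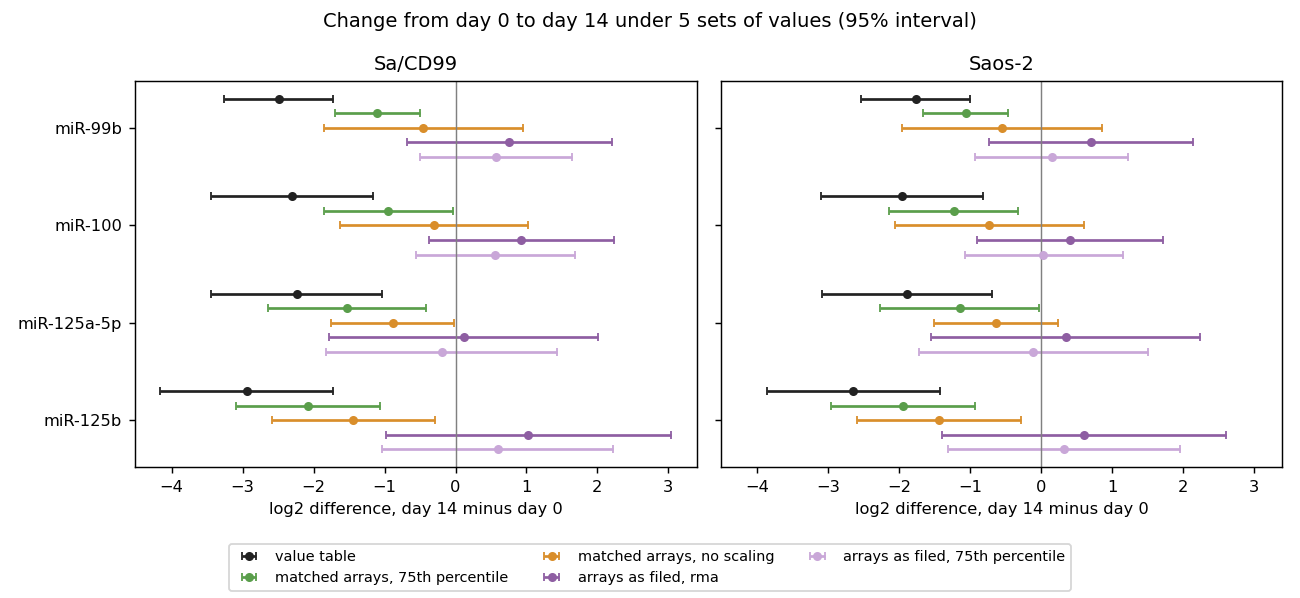
Log2 change from day 0 to day 14 (horizontal axis) of 4 members in Sa/CD99 and in Saos-2 under 5 sets of values, with 95% intervals from the fit. The points of the table and of the matched arrays, with and without scaling, lie below 0, and the intervals of the arrays as filed include 0 for each member.

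By day 7 part of the fall was in place, and fewer members passed. From day 0 to day 7, hsa-miR-99b fell by 1.35 in Sa/CD99 (adjusted p = 0.016), 1 member of 5 beside 32.0% of all miRs called and 11.0% called lower. hsa-miR-125b changed by −1.47 there (adjusted p = 0.0702). With clone and replicate number as a block, 4 members were called in Sa/CD99, hsa-miR-125b at an adjusted p of 0.0416, beside 35.6% of all miRs called and 14.6% called lower. No member was called there without any of the 4 Sa/CD99 arrays of days 0 and 7, and 3 were called without either Saos-2 day 7 array.

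In Saos-2, where both days lay on slide 1, hsa-miR-99b fell by 1.37 from day 0 to day 7 (adjusted p = 0.0133) and hsa-miR-125b by 1.70 (adjusted p = 0.0372), 2 members of 5 beside 36.5% called and 15.1% called lower. Of these 1 was called without either Sa/CD99 day 7 array, Saos-2 day 0 replicate 1 or day 7 replicate 2, and 0 without Saos-2 day 0 replicate 2. From day 7 to day 14 in Sa/CD99, both days on slide 2, hsa-miR-99b fell by 1.14 (adjusted p = 0.0465), 1 member of 5 beside 19.6% called and 4.57% called lower. That call was lost without any 1 of the 6 Sa/CD99 arrays or either Saos-2 day 0 array, and 2 members were called without Saos-2 day 7 replicate 2. In Saos-2 no member was called from day 7 to day 14, nor any other miR (limma, 0%, with 19 of 219 at an unadjusted p under 0.05).

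The let-7 miRs of the same clusters are made from the primary transcripts that also hold the members. They are shown with their seeds in capitals because the 3 share the seed and differ only outside it.
hsa-let-7a: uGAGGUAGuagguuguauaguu
hsa-let-7c: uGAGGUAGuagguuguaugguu
hsa-let-7e: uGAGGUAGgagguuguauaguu
From day 0 to day 14 in Sa/CD99 all 3 fell: hsa-let-7a by 1.47 (adjusted p = 0.00956), hsa-let-7c by 2.21 (adjusted p = 0.00167) and hsa-let-7e by 2.10 (adjusted p = 0.00506). In Saos-2 hsa-let-7c fell by 1.33 (adjusted p = 0.0224) and hsa-let-7e by 1.53 (adjusted p = 0.0249), and hsa-let-7a changed by −0.78 (adjusted p = 0.114, but 0.0149 and 0.0196 without Saos-2 day 7 replicate 1 or 2). The Saos-2 calls of hsa-let-7c and hsa-let-7e were lost without any 1 of the 4 Saos-2 arrays of days 0 and 14, at adjusted p of 0.0552 to 0.0981. Scaled to the 75th percentile, hsa-let-7c in Sa/CD99 alone of the 3 was called (−1.34, adjusted p = 0.0178), with −0.78 for hsa-let-7a (adjusted p = 0.186) and −1.25 for hsa-let-7e (adjusted p = 0.0837) there. With columns shifted to one median hsa-let-7a stood at −0.35 in Sa/CD99 (adjusted p = 0.453) and hsa-let-7e at −0.97 (adjusted p = 0.0882), while hsa-let-7c was called (−1.08, adjusted p = 0.0382). In Saos-2 none was called there, with −0.05 for hsa-let-7a, −0.60 for hsa-let-7c and −0.80 for hsa-let-7e. With normexp all 3 were called in both cell types, hsa-let-7a in Saos-2 at −1.40 (adjusted p = 0.0163). The unscaled ratio of day 14 to day 0 of hsa-let-7a was 0.729 in clone 22 and 1.14 in clone 36. hsa-let-7a is also made from hairpins outside the chromosome 11 cluster, which the array cannot separate.

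The other arm of a hairpin is cut from the same precursor as the member. For the hsa-miR-99b and hsa-miR-125a hairpins of chromosome 19 both arms could be followed, and their signals went opposite ways. Their sequences are shown since they carry other seeds than the members.
hsa-miR-99b*: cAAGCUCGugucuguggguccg
hsa-miR-125a-3p: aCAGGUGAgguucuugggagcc
The unscaled total gene signal of hsa-miR-125a-3p (chr19:51693306-51693327, plus strand) in the matched Sa/CD99 arrays was 2.01 in clone 22 and undetected in clone 36 at day 0, 36.6 and 42.5 at day 7 and 125 and 127 at day 14. In Saos-2 it was 1.92 and 2.42 at day 0, 26.4 and 114 at day 7 and 73.4 and 96.3 at day 14. Each array of days 7 and 14 lay above each of day 0, where the 5p arm, hsa-miR-125a-5p, had its highest signal. A rise was common in the table: 37.0% of all tested miRs in Sa/CD99 and 28.8% in Saos-2 were called higher at day 14 than at day 0. Among the 100 miRs detected in every column 11 were called higher in each cell type. Whether the rise was particular to these arms was not tested. In the table hsa-miR-125a-3p was higher at day 14 by 6.58 on the log2 scale in Sa/CD99 (adjusted p = 0.00595) and by 3.88 in Saos-2 (adjusted p = 0.055, and 0.0448 with the replicate block). The size in Sa/CD99 is uncertain, since its day 0 mean holds an undetected value: it was 9.41 without day 0 clone 22, 3.74 without day 0 clone 36 and 1.27 with normexp, all called. In Saos-2 it was 0.91 with normexp (adjusted p = 0.00206) and 4.61 with shifted columns (adjusted p = 0.0396). Without Sa/CD99 day 0 clone 22 or clone 36, whose spread entered the common error, the adjusted p of the Saos-2 change was 0.000751 and 0.000746.

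hsa-miR-99b* (chr19:51692656-51692677, plus strand) was undetected in all 4 day 0 columns and in Saos-2 replicate 1 at day 7. Its total gene signal was 9.25 and 11.3 at day 7 and 25 and 25.6 at day 14 in Sa/CD99, and 15.8 in the remaining day 7 array and 17.2 and 22.1 at day 14 in Saos-2. In the table it was at least 3.31-fold higher at day 14 than at day 0 in Sa/CD99 and at least 4.16-fold higher in Saos-2, a bound in which the day 0 columns were set at their lowest detected value. It passed the filter only through groups of days 7 and 14, so these values are a description with no test. By the arrays as filed, where no day change was called, hsa-miR-125a-3p differed by −2.92 between the cell types over all days (Sa/CD99 minus Saos-2, adjusted p = 0.0241), against the higher values of the members there. hsa-miR-99b* was detected there in 1 of 6 Sa/CD99 arrays and in 6 of 6 Saos-2 arrays.

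The arms from the other hairpins were rarely seen. hsa-miR-125b-1* was detected in 5 of 12 columns and hsa-miR-125b-2* in 4 of 12, while hsa-miR-99a*, hsa-miR-100* and hsa-let-7c* were detected in 0 and hsa-let-7e* in 1. Of the related miR-10 family, which lies in the HOX gene clusters, hsa-miR-10a was detected in 9 of 12 columns and hsa-miR-10b in 12 of 12. hsa-miR-10b fell from day 0 to day 14 by 2.95 in Sa/CD99 (adjusted p = 0.0461), with −1.43 in Saos-2 (adjusted p = 0.304). This direction depended on the scaling: hsa-miR-10b stood at −0.46 (adjusted p = 0.589) and 0.18 (adjusted p = 0.876) after scaling to the 75th percentile, and at 0.18 and 0.69 with no scaling.

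**Figure D5:**
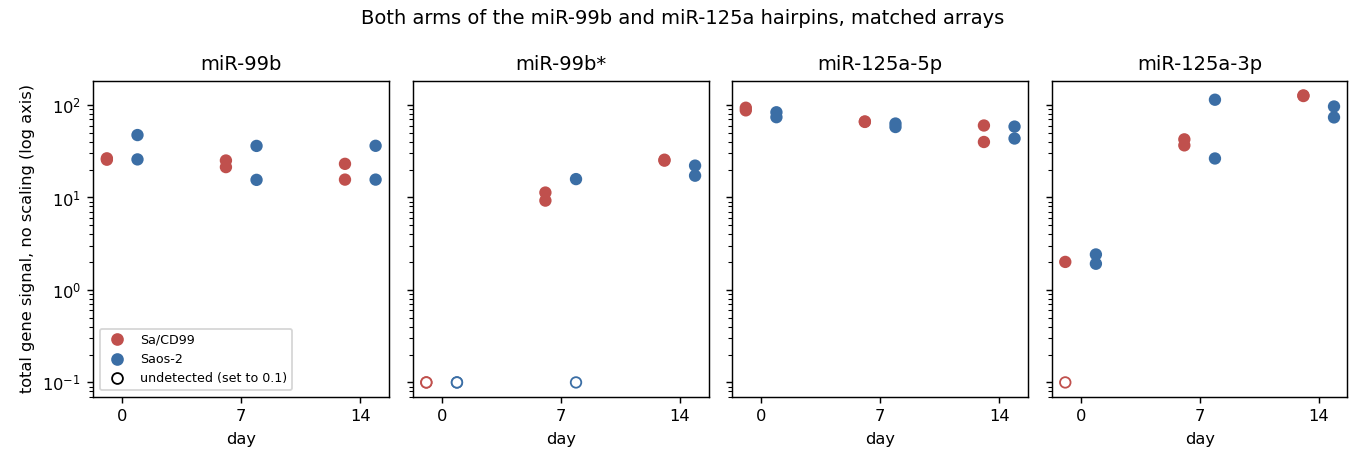
Unscaled total gene signal (vertical axis, log scale) by day (horizontal axis) of both arms of the hsa-miR-99b and hsa-miR-125a hairpins in every matched array, undetected points drawn at the floor of 0.1. At day 0 hsa-miR-99b* is at the floor in all 4 arrays and hsa-miR-125a-3p at the floor in 1 and at 1.92 to 2.42 in 3, and at day 14 both are at 17.2 to 127, while hsa-miR-99b and hsa-miR-125a-5p are lower at day 14 than at day 0 for each clone and replicate number. Signals are not comparable between panels.

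The pattern over the 12 columns was compared among the 4 members detected in all of them, hsa-miR-99a being left out. Pearson's r of the log2 values, given as a description of columns that share days, slides and scaling, was 0.974 between hsa-miR-100 and hsa-miR-125b, one of whose copies lies beside hsa-miR-100. It was 0.949 between hsa-miR-125a-5p and hsa-miR-125b, of one seed but different clusters. Between hsa-miR-99b and hsa-miR-125a-5p, of one cluster, it was 0.906. The median over all pairs of the 100 miRs detected in every column was 0.675.

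Around the group means, with the days thus removed, r was 0.829 for hsa-miR-100 with hsa-miR-125b and 0.774 for hsa-miR-125a-5p with hsa-miR-125b, but 0.266 for hsa-miR-99b with hsa-miR-125a-5p, beside a median of 0.094 over all pairs. hsa-miR-125a-5p and hsa-let-7e, neighbours on chromosome 19, had 0.96 over the columns and 0.907 around the group means. With hsa-let-7c and hsa-let-7a, of other clusters, hsa-miR-125a-5p had 0.947 and 0.895 around the group means. Other neighbours had lower values there: 0.418 for hsa-miR-99b with hsa-let-7e and 0.164 for hsa-miR-100 with hsa-let-7a. hsa-miR-125b had 0.728 with hsa-let-7c and 0.636 with hsa-let-7a. High values were thus not confined to pairs of one cluster.

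Among 96 other miRs detected in every column, those most like hsa-miR-99b were hsa-miR-425 (r = 0.977), hsa-miR-92a (0.972) and hsa-miR-149 (0.967). For hsa-miR-100 they were hsa-miR-221 (0.911), hsa-miR-193b (0.908) and hsa-miR-149 (0.908). For hsa-miR-125a-5p they were hsa-let-7d (0.965), hsa-miR-23b (0.965) and hsa-miR-365 (0.960), and for hsa-miR-125b hsa-miR-23a (0.950), hsa-miR-193b (0.949) and hsa-miR-224 (0.948). hsa-miR-149 and hsa-miR-193b each stood on the lists of a pair of members.

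Each member was read by 2 probe sequences. On the matched arrays, with no scaling, both probes of hsa-miR-99b, hsa-miR-100, hsa-miR-125a-5p and hsa-miR-125b had a lower mean at day 14 than at day 0, by −0.46 to −1.92 on the log2 scale, so the fall did not rest on 1 probe of a pair. For hsa-miR-99a, near the limit of detection, no change by probe is given.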

How the data were processed

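Total RNA, labelled with Cy3, was hybridised to 12 one-colour human miRNA arrays, 2 per group, with Saos-2 as parental line. The authors deposited per-spot intensity from Feature Extraction (10.7.3.1 by the file headers, another version by the Methods), with a total gene signal per miR, not normalized between arrays. The deposited log2 table holds the authors' normalized values, in which the order of detected miRs followed the total gene signal of the matched array and undetected miRs stand at a column minimum, so its differences against undetected values depend on that minimum. Its exact scaling is not given in the sources used here. Equal table values could stand for unequal signals: hsa-let-7a was at 10.09 in every day 0 column, with total gene signals of 846 to 977 on the matched arrays. Its spread at day 0 in the table is therefore not a spread of signal. The authors' fold changes and the mRNA arrays were not used here.

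limma 3.58.1 (R 4.3.3) fitted the 6 groups of the table with 6 residual degrees of freedom, Benjamini-Hochberg adjustment running over all 219 tested miRs. Cell types per day were called at p of 0.01 and a fold of 1.4, and all other comparisons at an adjusted p of 0.05. Scanner arrays, 15024 spots other than controls of 15739, were processed with an rma background correction, quantile normalization and median polish, chosen here for the rma adaptation that the Methods name without its steps, and with normexp (offset 50, local backgrounds that the scanner software marked as outliers set to the array's median). The fit was tested on simulated data. The members, lists and tests were chosen with earlier results of these data known. The miRs named were the members, the miRs and other arms of their clusters, the miR-10 family and, for each member, the 3 miRs most like it among those detected in every column. hsa-let-7a-2* is not in the table.

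The clones pair the Sa/CD99 arrays over days as the same cell line, and the deviations of the same clone correlated at 0.0338 to 0.184. The Saos-2 numbers come from the labels, and those arrays correlated at 0.18 to 0.203. On the matched arrays these values were 0.183 to 0.313 and 0.291 to 0.419. Nothing says that the Saos-2 replicates are separate cultures, so p-values measure the spread between these arrays, which may be technical. The number of arrays limits the precision. Alternatives changed the labels, background correction, scaling, filter, undetected values, samples, block, slide, threshold and the arrays left out.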

Additional observations from a re-analysis of the deposited data

How the results depend on the processing

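The main values were those of the log2 table. Members called in the changes from day 0 to day 7 (Sa/CD99 and Saos-2), day 7 to day 14 (Sa/CD99 and Saos-2) and day 0 to day 14 (Sa/CD99 and Saos-2) were 1, 2, 1, 0, 4 and 4. Alternatives that moved them gave, with no filter or with only miRs detected in every column, 4 for day 0 to day 7 in Sa/CD99 and 0 for day 7 to day 14 in Sa/CD99. With only the columns compared, the day 0 to day 7 counts were 2 and 0, and with the threshold of the Methods the Saos-2 count was 1. The matched arrays with the rma correction gave 4 and 4 for day 0 to day 7 and 0 for day 7 to day 14 in Sa/CD99, and normexp gave 3 for day 0 to day 7 in Sa/CD99 and an all-day difference of 0.01 for hsa-miR-125b, opposite in sign. Scaling to the 75th percentile gave 0 and 1 for day 0 to day 7 and 0 for day 7 to day 14 in Sa/CD99, and with no scaling these were 0, 0 and 0, with 1 and 0 for day 0 to day 14. Columns shifted to one median gave 0 and 0, 0, and 2 and 2 in the same order, and all-day differences of 0.04 for hsa-miR-99b and 0.00 for hsa-miR-125b, of which the first had turned in sign and the other was at 0. Undetected values raised to the lowest detected one gave 3 for day 0 to day 7 and 0 for day 7 to day 14 in Sa/CD99. The replicate block gave 4 for day 0 to day 7 in Sa/CD99 and changed no other count of members called. The slide could not be fitted beside 6 group means; as a random block it gave 4 and 4 for day 0 to day 7 and 1 for day 7 to day 14 in Saos-2, and as a fixed term beside additive cell type and day 3 and 0 in Sa/CD99.

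The arrays as filed gave 4 members called over all days and 1 at day 14 where the table gave 0, and 0 for every change with the day. Over all days hsa-miR-99b stood at 1.37, hsa-miR-100 at 1.60 and hsa-miR-125b at 2.07, all opposite to the table. From day 0 to day 14 they gave in Sa/CD99 0.75 for hsa-miR-99b, 0.92 for hsa-miR-100, 0.11 for hsa-miR-125a-5p, 1.03 for hsa-miR-125b, 0.09 for hsa-let-7a, 0.18 for hsa-let-7c and −2.39 for hsa-miR-125a-3p. In Saos-2 they gave 0.70, 0.40, 0.35 and 0.60 for the same 4 members, 0.28, 0.27 and 0.24 for hsa-let-7a, hsa-let-7c and hsa-let-7e and −0.98 for hsa-miR-125a-3p. From day 0 to day 7 in Saos-2 hsa-miR-99b stood at 0.60 and hsa-miR-125b at 0.71, and from day 7 to day 14 in Sa/CD99 hsa-miR-99b at 0.87. Scaled to the 75th percentile they called 1 member over all days, and with the replicate block 4.

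Leaving out each array in turn gave 0 to 3 members called from day 0 to day 7 in both Sa/CD99 and Saos-2, 0 to 2 from day 7 to day 14 in Sa/CD99, 4 to 4 and 2 to 4 from day 0 to day 14, and 0 to 4 on the arrays as filed over all days. Over all days, the difference then ran from −0.29 to 0.06 for hsa-miR-125b, from −0.03 to 0.49 for hsa-miR-125a-5p and from −0.17 to 0.02 for hsa-miR-99b. Over the other alternatives, counts over all miRs ran from 0 (arrays as filed) to 760 (no filter) from day 0 to day 14 in Sa/CD99, where the table gave 163, and to 727 in Saos-2, where it gave 122. From day 0 to day 7 they ran from 0 to 688 and from 0 to 700, against 70 and 80, and over all days from 0 (normexp) to 93 (arrays as filed), against 6. Without 1 array they ran from 5 to 79 from day 7 to day 14 in Sa/CD99, from 0 to 19 in Saos-2 and from 3 to 26 for the interaction. No scaling, the slide as a fixed term and the scaled, blocked and reduced sets of the arrays as filed were chosen after the data were seen. With no filter 851 miRs were tested, including undetected ones at the column minimum, which differed by day. hsa-miR-99a*, undetected throughout, had means of −3.02, −3.22 and −3.3 in Sa/CD99 at days 0, 7 and 14. In Saos-2 its means were −3.08, −3.24 and −3.3. The counts with no filter therefore include comparisons of column minima and are not read as numbers of miRs whose level changed. The cause of the other changes in count between settings was not tested. Signal near background limits hsa-miR-99a.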
